A study of Mus musculus with 14 samples.

Results

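Synovial cells sorted as CD105+ from knee joints of arthritic mice were compared with synovial cells sorted as CD200+ from joints of non-immunized mice. The comparison takes all 5 libraries labelled CD105_AIA (numbers 10 to 14) and all 4 labelled CD200_NI (numbers 1 to 4), 9 of the 14 libraries of the study. The other 5 libraries (numbers 5 to 9) hold CD200+ cells of arthritic mice. Their values are given beside the comparison where they help to place a level. All mice were C57BL6 of 16 weeks of age. Antigen-induced arthritis was set off with methylated bovine serum albumin, given first with complete Freund's adjuvant and then injected into the joint. The non-immunized mice received phosphate buffered saline at each of those times, and knees were taken on day 10 after the joint injection. Both gates took live cells without CD31 (an endothelial marker), TER119 (an erythroid marker) and CD45 (a leukocyte marker) and with CD51 (integrin alpha V). The CD200+ gate left out CD105+ cells and the CD105+ gate left out CD200+ cells. Each library was made from 200 to 500 cells sorted straight into lysis buffer, with synthetic ERCC RNAs added after lysis. Population and disease state differ together between these 2 groups, so a difference cannot be given to either. The labels do not say whether libraries of a group came from different mice, so p-values measure the spread between libraries, which may be partly technical.

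As background, CD51+ cells that lack blood and endothelial markers include skeletal progenitors, and CD200 and CD105 (endoglin, a co-receptor for TGF-beta family ligands) divide them further. Osteoblasts form bone by laying down type I collagen and a set of mineral-binding proteins, under the transcription factors Runx2 and Sp7 (osterix). Red cells arise from erythroblasts, dividing marrow cells in which Gata1, Klf1 and their partners switch on haem synthesis, globins and the red cell membrane. Erythroid precursors can carry CD105 on their surface before they gain TER119.

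Total counts per library were 12177437 to 32024412 in arthritic CD105+ cells and 31424217 to 40331071 in non-immunized CD200+ cells. Spike-in RNAs took 20.3 to 55.6% of the counts in the first group and 47.5 to 85.4% in the second, which left 5968096 to 18553803 and 5365927 to 18203642 counts on mouse genes. The spike-in share was 38.6 ± 15.8% (SD, n = 5) against 59.8 ± 17.4% (SD, n = 4), a difference that did not pass a two-sided exact permutation test (p = 0.143, adjusted over 3 library measures p = 0.429, smallest p possible 0.0159). Genes detected with at least 1 count numbered 14932.6 ± 1933.6 and 15183 ± 2221.5 (exact permutation p = 0.873). Single libraries stood apart in markers of other cells. Library 11 had a summed macrophage marker level of 5792.5 CPM (CPM being the counts of a gene scaled to the library total on mouse genes, with the TMM factor applied), and library 3 a B and plasma cell level of 6816.5 CPM and a neutrophil level of 6978.7 CPM. Chondrocyte levels were 16633.1 CPM in library 3, 5335.9 CPM in library 12 and 4957.1 CPM in library 1, against 251.2 CPM or less in the other libraries compared. Library 2 had the highest spike-in share and an immediate early gene level of 89678.9 CPM, and library 1 had the highest erythroid level of its group, 316.4 CPM. Values that touch a result are repeated beside it.

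Of 15015 genes tested, 1982 differed at an adjusted p under 0.05 in edgeR's quasi-likelihood test, 13.2% of those tested. There were 836 genes higher in arthritic CD105+ cells (5.57%) and 1146 lower (7.63%). These shares are the background for the count of called members in each list below. The differences were large: 367 of the higher genes had a log2 change over 4 and 708 of the lower genes one under -4. Among the calls, 200 higher genes had no count in any non-immunized CD200+ library and 302 lower genes had none in any CD105+ library. The 2 groups of libraries did not overlap for 1644 of the called genes, against 3603 of all genes tested (24.0%). Without library 14 the calls were 1308, with 753 lower, and without library 10 or 13 the higher genes were 557 and 550. The median log2 change of all genes tested was -0.24. Scaling to the spike-ins in place of the bulk of genes gave a median of 1.21 and left 278 calls, 167 higher and 111 lower. RLE scaling gave a median of -0.50, with 669 higher and 1430 lower, so every change below is a change relative to the other genes of the same library. In bulk libraries, fewer cells of a type and less RNA per cell cannot be told apart.

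**Figure D1:**
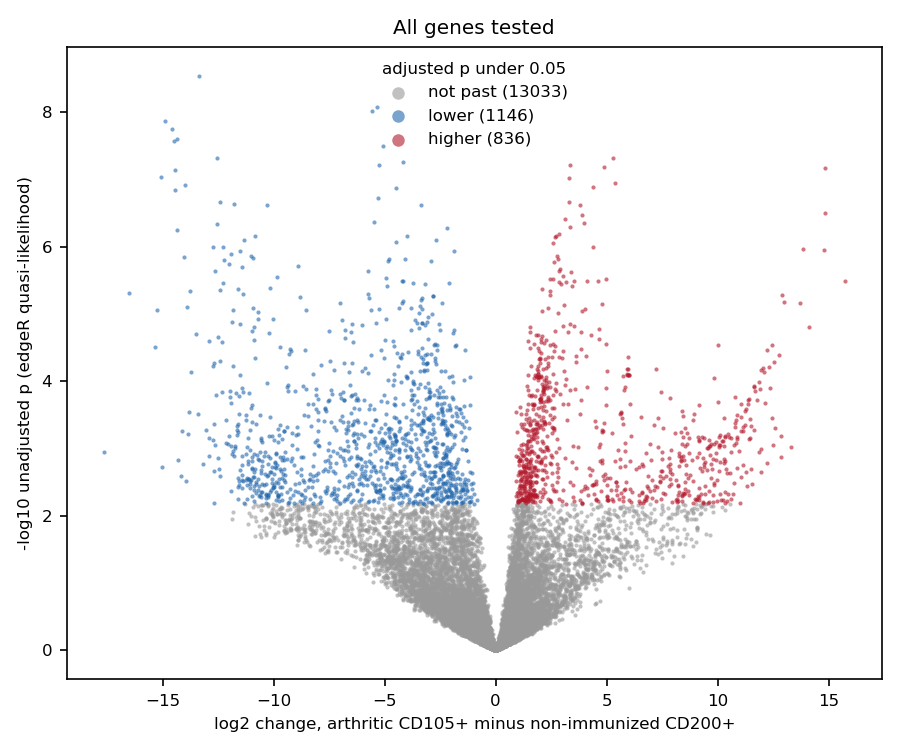
Each point is a gene tested, with the log2 change of arthritic CD105+ minus non-immunized CD200+ cells on the horizontal axis and the unadjusted p on a -log10 scale on the vertical axis. Red and blue points are the 836 higher and 1146 lower genes at an adjusted p under 0.05, and grey points did not pass.

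The gene of one sort marker followed its gate. Cd200, which encodes the sorted membrane glycoprotein, had 796, 678, 459 and 428 CPM in non-immunized CD200+ libraries 1 to 4, and 0, 0, 11.4, 0 and 0 CPM in CD105+ libraries 10 to 14. The groups did not overlap, all CD105+ counts came from library 12, and Cd200 fell by 8.00 on the log2 scale (SE 1.72, adjusted p = 0.00937). Eng, the gene of CD105, had 0, 9.02, 9.92, 2.96 and 11.1 CPM in the CD105+ libraries and 12.2, 7.63, 0.315 and 0.926 CPM in the CD200+ libraries. These ranges overlapped and the log2 difference of 0.33 (SE 1.57) did not pass (adjusted p = 0.918). Eng RNA thus did not separate the cells by the surface marker. Itgav, the gene of CD51, did not pass either (log2 -2.11, adjusted p = 0.299). Nor did Thy1 (log2 -0.15), Pecam1, the gene of CD31 (log2 -1.26), or Ptprc, the gene of CD45 (log2 0.49). Ptprc was at 19.6 CPM in library 4 and at 0 in the other CD200+ libraries, and ran from 0 to 17.3 CPM in CD105+ cells; without library 4 it passed (log2 9.36, adjusted p = 0.0465).

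The 12 genes with the largest increase, among called protein-coding genes at 10 CPM or more with no overlap, had no count in any non-immunized CD200+ library. They were Rhag, Gata1, Tspan33, Gfi1b, Acss1, Trim10, Cenpn, Aldh1a7, Cited4, Cdca5, Abcg4 and Spag5. Fold bounds here and below compare summed counts: the counts of a gene over all libraries of one group, scaled to CPM by their summed library sizes, against 3 counts over all libraries of the other. Libraries with more counts weigh more in them than in the mean of the CPM values, so a bound can lie above or below the fold of that mean. With a floor of 0.0538 CPM in the CD200+ libraries, the increases ran from at least 1180-fold for Cdca5 to at least 8785-fold for Rhag. Rhag (a red cell ammonium channel of the Rh complex), Gata1 and Gfi1b (erythroid transcription factors) and Trim10 (a RING finger protein of erythroid cells) belong to red cell development. Cenpn (a centromere protein), Cdca5 (sororin, a cohesin regulator) and Spag5 (astrin, a spindle protein) serve cell division. The 12 genes with the largest decrease were Adipoq, Wif1, Dmp1, Ibsp, Cavin2, Pax7, Cdh15, Ptprd, Fgfr4, Chrnb1, Heyl and Dkk1. Apart from Dmp1 and Ibsp, they had no count in any CD105+ library, and on summed counts, with a floor of 0.0477 CPM in CD105+ cells, Adipoq was at least 23819-fold lower. Ibsp and Dmp1 (mineral-binding bone matrix proteins), Wif1 and Dkk1 (secreted Wnt antagonists), Adipoq (the fat hormone adiponectin) and Pax7 and Cdh15 (muscle satellite cell genes) are made by different mesenchymal cell types. Fgfr4, Chrnb1 and Heyl are, with Pax7 and Cdh15, in the satellite cell list given under other observations.

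Red cell genes were higher in arthritic CD105+ cells. All 10 erythroid cell markers were higher in every CD105+ library than in any non-immunized CD200+ library (12.5% of all genes tested were), and 7 of 10 passed, with a median log2 change of 7.71 against -0.24 for all genes. Their summed level was 11233.7 to 32389.2 CPM in arthritic CD105+ cells, 7.44 to 316.4 CPM in non-immunized CD200+ cells and 0 to 16.5 CPM in arthritic CD200+ cells. TER119+ cells were gated out of all groups, so these RNAs were found in cells sorted as TER119-. The lists of red cell genes were drawn up with earlier results of these data known and are descriptions.

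Erythroid regulators had 3 of 20 members higher, none lower, and a median log2 change of 4.18. Of all genes tested 5.57% were called higher. Gata1 (ENSMUSG00000031162, X:7959260-7978071 in GRCm38) had 276, 159, 444, 348 and 281 CPM in CD105+ libraries 10 to 14 and 0 in all 4 non-immunized and all 5 arthritic CD200+ libraries. It was at least 5471-fold higher (adjusted p = 0.000155). Gfi1b, a repressor that acts with Gata1, had 574, 165, 268, 267 and 184 CPM against 0 in every CD200+ library, at least 4544-fold higher (adjusted p = 0.000318). Both genes separated the groups completely. Klf1, the activator of adult globin genes, had 1473, 560, 1172, 913 and 698 CPM against 13.0, 27.0, 0 and 0 (log2 6.61, SE 1.82, adjusted p = 0.0408). Its groups did not overlap, yet its call was lost in 10 of 21 alternatives, among them leaving out any 1 of libraries 1, 2 and 10 to 14 (adjusted p up to 0.0898). Epor, the erythropoietin receptor, had 78.6, 144, 230, 187 and 206 CPM in CD105+ cells and 15.7, 0, 0 and 0 CPM in CD200+ cells (log2 5.41, adjusted p = 0.100). Its only CD200+ counts lay in library 1, where the whole erythroid list was highest. Tfrc, the transferrin receptor that brings in iron, had a log2 difference of 4.56 (SE 1.46) and missed the threshold at an adjusted p of 0.0527. Without library 1, 6 regulators passed, and without any other single library 2 to 5 did.

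The promoters of Gata1 and Rhag are shown because these genes were absent from the non-immunized CD200+ libraries and abundant in CD105+ cells. They are RefSeq sequences of GRCm38.p6, 250 bases before to 50 after the start that RefSeq gives, read 5′ to 3′ on the gene's strand. For Gata1 that start lies inside the GENCODE span given above, so the window is not at the outermost annotated start. Capitals mark GATAA or its reverse complement TTATC, the core that GATA factors bind. Gata1 lies at X:7967861-7968160 (minus strand) and Rhag at 17:40810899-40811198 (plus strand).
Gata1: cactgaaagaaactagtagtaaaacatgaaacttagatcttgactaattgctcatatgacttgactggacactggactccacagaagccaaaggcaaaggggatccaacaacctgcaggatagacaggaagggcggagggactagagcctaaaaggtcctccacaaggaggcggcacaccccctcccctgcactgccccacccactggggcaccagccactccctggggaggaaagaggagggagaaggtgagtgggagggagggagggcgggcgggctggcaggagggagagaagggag
Rhag: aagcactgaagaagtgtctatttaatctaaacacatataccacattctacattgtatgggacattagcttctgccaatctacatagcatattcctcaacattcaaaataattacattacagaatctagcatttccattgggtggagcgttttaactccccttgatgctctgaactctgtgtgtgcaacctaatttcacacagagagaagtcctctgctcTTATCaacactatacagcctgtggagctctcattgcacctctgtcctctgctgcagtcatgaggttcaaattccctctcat
The Rhag window holds 1 such core, as do the windows of Ermap and Alas2, and the Gata1 window holds none. The core is in 25.4% of all 32851 RefSeq promoter windows of that length, and a match describes letters, not a bound site. An entry was found for 6 of the 10 erythroid markers.

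Haem synthesis had 8 of 17 members higher, none lower, and a median log2 change of 3.52. Alad, which joins aminolevulinate into porphobilinogen, had 2842, 901, 1166, 1814 and 1179 CPM in CD105+ libraries and 32.3, 39.3, 41.1 and 49.9 CPM in CD200+ libraries. The groups lay far apart and the log2 change was 5.28 (SE 0.50, adjusted p = 6.80e-05). Arthritic CD200+ cells had 43.5 ± 19.3 CPM (SD, n = 5), with a mean within the range of the non-immunized cells. The list also counts Blvrb, biliverdin reductase B, which acts on a product of haem breakdown and not in synthesis. Blvrb had 6500, 2246, 2262, 3520 and 3535 CPM against 134, 83.0, 43.8 and 85.7 (log2 5.38, SE 0.55, adjusted p = 8.92e-05). Tmem14c, a mitochondrial porphyrinogen transporter, rose by 4.10 (SE 0.55). Urod, which makes coproporphyrinogen, rose by 3.63 (SE 0.63), and Cpox, the next enzyme, by 4.50 (SE 1.26). Alas2, the erythroid form of the first enzyme, had 338, 129, 225, 294 and 161 CPM against 2.89, 0, 0 and 0 (log2 8.22, SE 2.36, adjusted p = 0.0352). The number of members called was 5 to 8 when single libraries were left out, with 5 without library 3, and 5 under spike-in scaling.

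Of 24 red cell membrane genes, 9 were higher, none lower, and the median log2 change was 4.21. Rhag had 865, 294, 870, 396 and 353 CPM in CD105+ cells and 0 in all non-immunized CD200+ libraries. The list also counts Trim10, which is a RING finger protein and not a membrane protein. Trim10 had 205, 81.5, 192, 136 and 143 CPM against 0, at least 2556-fold higher (adjusted p = 0.000317). Cldn13, a claudin of mouse erythroblasts, had 1445, 774, 1437, 1253 and 1050 CPM against 4.4, 0, 0 and 0 (log2 10.00, SE 1.64). Ermap (a blood group protein) rose by 8.38 (SE 1.99) and Rhd (the Rh blood group protein) by 8.84 (SE 2.04). Slc4a1, the anion exchanger band 3, had 83.5, 200.1, 102, 312 and 360 CPM against 8.68, 0, 0 and 0 and missed the threshold (log2 6.57, adjusted p = 0.0532). Its CD200+ counts all lay in library 1. Without library 1, 15 of the 24 passed, while 5 passed without library 13 or 14 and 5 under spike-in scaling.

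The 4 adult globin genes tested had a median log2 difference of 4.50 and none passed edgeR's test. All 4 had an unadjusted p under 0.05, and all 4 passed in DESeq2. Hba-a1 had 75211, 21161, 10014, 29412 and 33509 CPM in CD105+ cells and 1636, 388, 604 and 3617 CPM in CD200+ cells (log2 4.44, SE 1.68, adjusted p = 0.0939). All 4 were higher in every CD105+ library than in any non-immunized CD200+ library, as were 12.5% of all genes tested. Reads of Hba-a1 and Hba-a2, and of Hbb-bs and Hbb-bt, can be split between near-identical copies, so each single value is uncertain. Together the globin genes took 2.71 to 18.3% of mouse gene counts in CD105+ libraries and 0.114 to 0.977% in non-immunized CD200+ libraries.

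In iron handling, 4 of 17 members were higher and 2 lower (median log2 1.65). Glrx5, which builds iron-sulfur clusters, had 2512, 1662, 1110, 2837 and 2026 CPM against 112, 74.8, 135 and 64.8 (log2 4.39, SE 0.45, adjusted p = 9.14e-05). The ferritin chains Fth1 and Ftl1 rose by 1.90 (SE 0.32) and 2.12 (SE 0.38). The ferroxidases Cp (ceruloplasmin, log2 -5.44) and Heph (hephaestin, at least 953-fold lower) fell. Among 21 antioxidant and pentose phosphate enzymes, 8 were higher and 1 lower (median log2 1.09). Taldo1, transaldolase, had 1003, 545, 777, 859 and 673 CPM against 47.5, 97.1, 54.3 and 100 (log2 3.37, SE 0.33). Prdx2, the abundant peroxiredoxin of red cells, rose by 3.33 (SE 0.38), and Gsr, glutathione reductase, fell by 1.77 (SE 0.37). The carbonic anhydrases Car1 and Car2 stood high in CD105+ cells. Car2 had 19653, 6194, 9532, 10709 and 7158 CPM against 186, 28.8, 3.40 and 70.3 (log2 7.21, SE 1.29, adjusted p = 0.00347), and Car1 rose by 8.28 (SE 2.06). Under spike-in scaling 1 of the 17 iron genes and 3 of the 21 enzymes were called higher and none lower, and 5 enzymes were called higher without library 1, 2, 3, 4, 10 or 13.

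**Figure D2:**
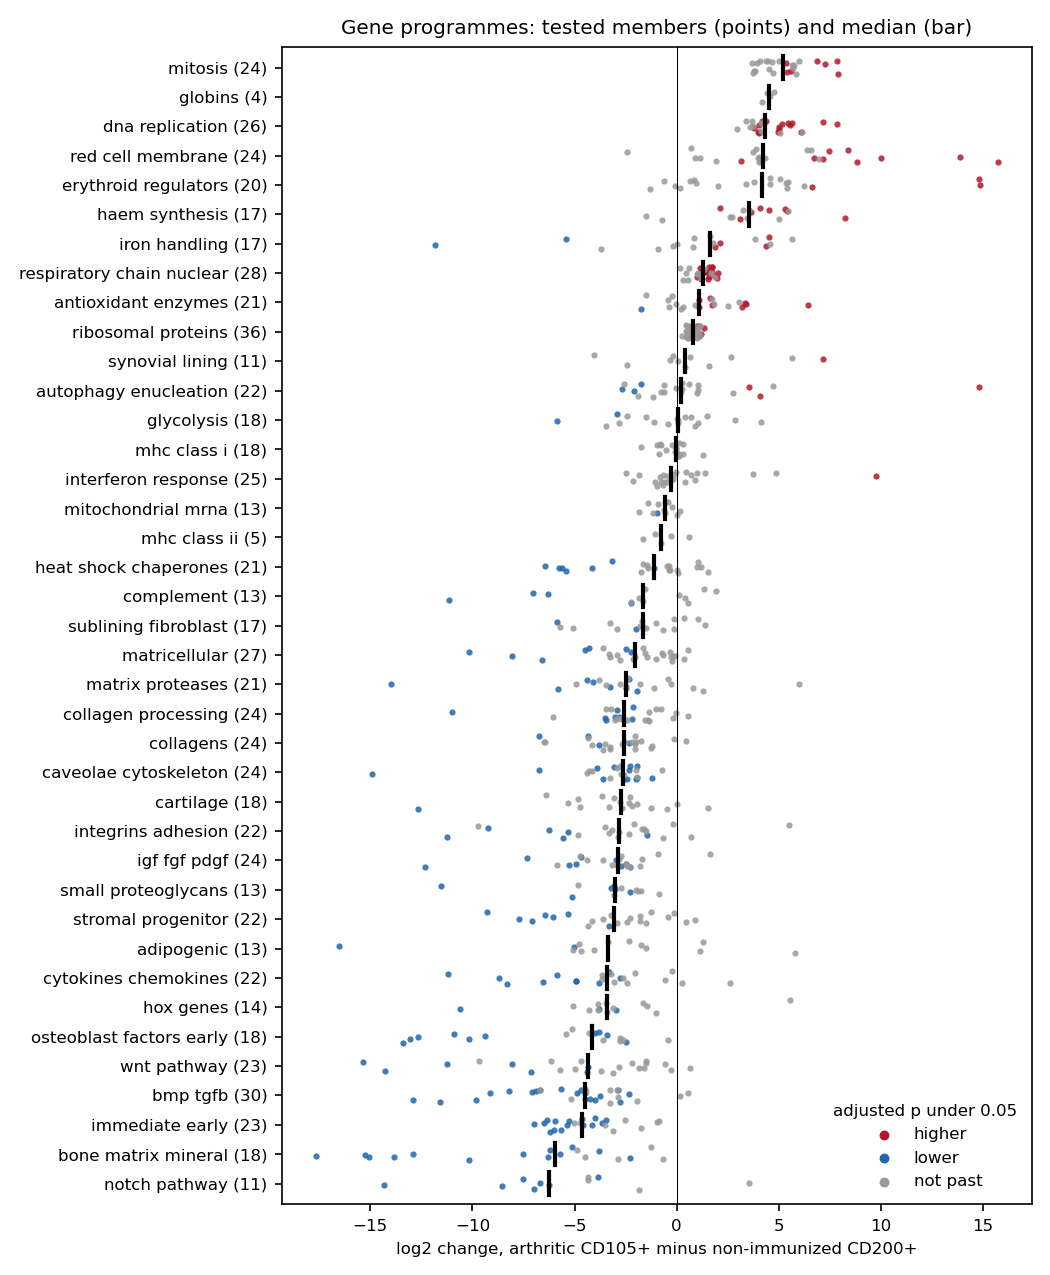
Each row is a gene list with the number of members tested, each point a member's log2 change (arthritic CD105+ minus non-immunized CD200+) and each black bar the list's median. Lists of mitosis (median 5.19) and red cell genes lie at the top, and lists of bone matrix (median -5.96) and Notch genes (median -6.27) at the bottom.

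DNA replication and mitosis genes were higher as well. Of 26 replication genes, 17 passed, all higher, with a median log2 change of 4.34, where 5.57% of all genes tested were called higher. All 26 were higher in every CD105+ library than in any non-immunized CD200+ one, as were 12.5% of all genes tested. Pcna, the sliding clamp of DNA polymerase, had 2017, 1027, 890, 1214 and 1612 CPM against 117, 47.1, 125 and 100 (log2 3.79, SE 0.41, adjusted p = 0.000121). Tyms, thymidylate synthase, rose by 3.96 (SE 0.45), and Mcm7, a subunit of the replicative helicase, by 4.38 (SE 0.53). Dut, which clears dUTP, rose by 4.01 (SE 0.59) and Rrm2, a subunit of ribonucleotide reductase, by 5.64 (SE 1.18). Mitosis genes were higher without overlap in 24 of 24 members (12.5% of all genes) and passed in 7, all higher (5.57% of all genes). Their median log2 change was 5.19. Plk1, a kinase that drives entry into mitosis, had 141, 105, 184, 154 and 133 CPM against 2.26, 0, 0 and 0 (log2 7.89, SE 1.92, adjusted p = 0.0165). Mki67, the proliferation marker Ki-67, had 448, 633, 439, 765 and 893 CPM against 49.2, 0, 7.31 and 2.60 (log2 5.42, SE 1.52, adjusted p = 0.0320). In arthritic CD200+ cells Pcna was at 205 ± 74.5 CPM and Mki67 at 41.5 ± 30.0 CPM (SD, n = 5), between the other groups' means. Leaving out single libraries gave 8 to 12 replication calls, with 8 each without library 1, 3 or 14, 9 without library 4, 10 or 13 and 11 without library 12. It gave 3 to 11 mitosis calls, with 11 without library 1 and 3 without library 2 or 4. Under spike-in scaling 7 replication genes and 1 mitosis gene were called, with medians of 5.97 and 6.24.

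Genes of the respiratory chain and of the ribosome were moderately higher. Of 28 nuclear genes of the respiratory chain, 17 passed, all higher, with a median log2 change of 1.31. Cyc1, cytochrome c1 of complex III, had 748, 504, 614, 638 and 568 CPM against 102, 193, 243 and 137 (log2 1.87, SE 0.33, adjusted p = 0.00343). Atp5o, a stalk subunit of ATP synthase, rose by 2.01 (SE 0.35) and Uqcrfs1, the Rieske protein, by 1.96 (SE 0.36). The 13 mRNAs encoded in the mitochondrial genome did not share this: their median was -0.56 and 1 passed, lower. That median was 0.77 under spike-in scaling, with no call. Without library 2, 4 of them were called lower, and without library 1, 3, 4, 10, 11, 13 or 14 none was, while 4 had an unadjusted p under 0.05 and DESeq2 called 4 lower. Of 36 cytosolic ribosomal protein genes, 8 passed, all higher, and all 36 log2 values were above 0 with a median of 0.82. Rpl6 had 1062, 873, 644, 1014 and 1061 CPM against 352, 348, 485 and 540 (log2 1.11, SE 0.23, adjusted p = 0.00708). Leaving out library 12 gave 17 ribosomal calls, library 14 gave 3, library 1 gave 4 and library 2, 10 or 13 gave 5. Respiratory calls ran from 8 (without library 1 or 10) and 10 (without library 4) to 17. Under spike-in scaling no gene of either list was called, while their medians were 2.67 and 2.31. At an unadjusted p under 0.05 in edgeR there were 22 in each list, and DESeq2 called 13 and 8.

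The bone-forming programme was the counterpart on the non-immunized CD200+ side. All 9 osteoblast cell markers were lower in every CD105+ library than in any non-immunized CD200+ library (11.5% of all genes tested were), and 8 of 9 passed (median log2 -10.92). Their summed level was 10687.8 to 19832.1 CPM in non-immunized CD200+ cells, 127.9 to 8397.9 CPM in arthritic CD200+ cells and 37.5 to 397.7 CPM in arthritic CD105+ cells. Of 18 osteoblast factors and early markers 10 fell and none rose (median -4.13), and of 18 bone matrix and mineralization genes 13 fell and none rose (median -5.96).

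Runx2, the factor that commits cells to bone, had 111, 30.3, 52.3 and 155 CPM in non-immunized CD200+ libraries and 0 in all 5 CD105+ libraries. On summed counts it was at least 2101-fold lower (adjusted p = 0.0111). Sp7, which acts after Runx2, had 140, 99.0, 110 and 82.3 CPM against 0, 0, 0.763, 0 and 0 (log2 -9.40, SE 1.79, adjusted p = 0.00495). Alpl, tissue non-specific alkaline phosphatase, had 605, 47.6, 410 and 388 CPM against 0, 0, 0, 0.739 and 0 (log2 -10.92, SE 1.60). Spp1, osteopontin, had 99709, 54036, 22078 and 23685 CPM against 3.11, 81.9, 4.20, 1.82 and 128 (log2 -10.15, SE 1.4, adjusted p = 0.000646). For these genes no CD105+ library reached the lowest CD200+ library.

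Ibsp, bone sialoprotein, had 7252, 5949, 6872 and 4211 CPM in non-immunized CD200+ cells and 0, 0, 0.286, 0 and 0.515 CPM in CD105+ cells (log2 -15.07, SE 1.5, adjusted p = 8.02e-05). Dmp1, a mineral-binding protein of maturing osteoblasts and osteocytes, had 1445, 7398, 112 and 244 CPM against 0, 0, 0, 0 and 0.221. Only 3 counts of Dmp1 were found in CD105+ cells, all in library 14 (log2 -15.27, SE 2.24, adjusted p = 0.000985). The ratio of levels was 26593, with a 95% counting interval of 9099 to 128955. Phex, a membrane protease of osteoblasts and osteocytes, fell by 10.19 (SE 1.62). Bglap, osteocalcin, had 5052, 180, 5909 and 2643 CPM against 27.7, 23.9, 0, 3.01 and 38.4 (log2 -7.53, SE 1.51, adjusted p = 0.00634), with reads that may be shared among the near-identical Bglap genes. In arthritic CD200+ cells Ibsp was at 2853 ± 1660 CPM and Bglap at 573 ± 326 CPM (SD, n = 5). Leaving out single libraries gave 6 to 11 calls among the osteoblast factors, with 6 each without library 2, 3, 4 or 13. It gave 11 to 14 among the matrix genes, and spike-in scaling left 5 and 6.

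The promoters of Ibsp and Bglap are given for the same reason, as genes that separate the groups in the other direction. Capitals mark ACCACA or its reverse complement TGTGGT, the core that Runx factors bind. Ibsp lies at 5:104299037-104299336 (plus strand) and Bglap at 3:88384417-88384716 (minus strand), again in RefSeq GRCm38.p6.
Ibsp: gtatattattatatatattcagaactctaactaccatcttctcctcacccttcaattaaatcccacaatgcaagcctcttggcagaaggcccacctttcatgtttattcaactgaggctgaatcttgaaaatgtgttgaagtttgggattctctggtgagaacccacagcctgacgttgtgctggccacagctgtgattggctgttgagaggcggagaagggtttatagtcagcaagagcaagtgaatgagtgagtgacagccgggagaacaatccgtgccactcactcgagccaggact
Bglap: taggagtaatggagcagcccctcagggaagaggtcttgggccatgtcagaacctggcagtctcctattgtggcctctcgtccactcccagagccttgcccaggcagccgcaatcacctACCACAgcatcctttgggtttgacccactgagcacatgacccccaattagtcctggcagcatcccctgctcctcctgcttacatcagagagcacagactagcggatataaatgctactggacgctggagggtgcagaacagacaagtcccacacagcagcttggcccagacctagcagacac
The Bglap window holds 1 such core, as does that of Dmp1, while those of Ibsp and Alpl hold none. The core is in 16.8% of all windows of that length, and 7 of the 9 osteoblast markers had an entry.

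**Figure D3:**
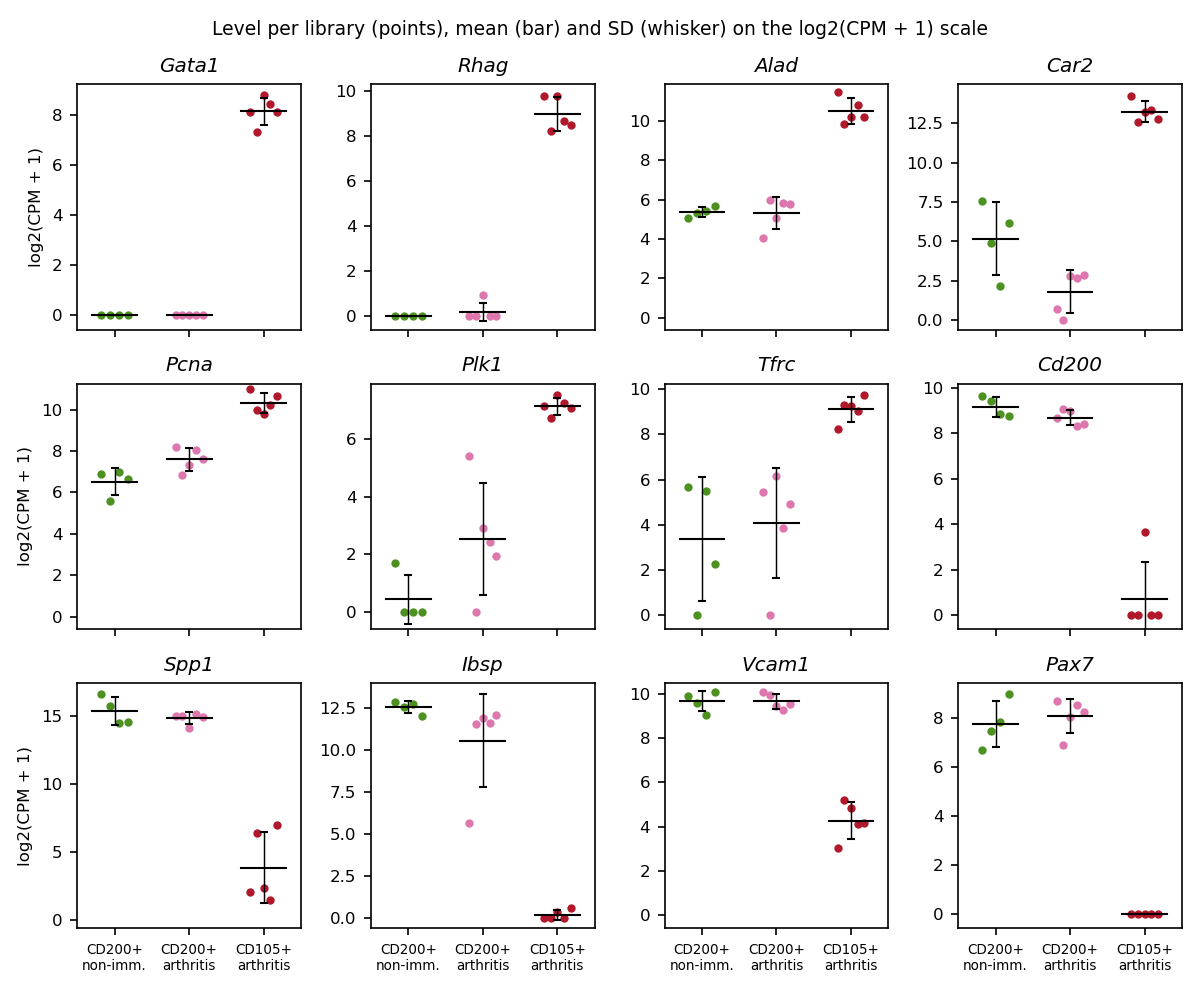
Levels of 12 genes in each library on a log2(CPM + 1) axis, with the mean and SD of each group. Gata1, Rhag, Alad, Car2, Pcna, Plk1 and Tfrc were higher in all 5 arthritic CD105+ libraries than in any non-immunized CD200+ library, and Cd200, Spp1, Ibsp, Vcam1 and Pax7 were lower.

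Collagens and other matrix genes were lower, with fewer calls. Of 24 collagen genes 4 fell and none rose (median -2.60), where 7.63% of all genes tested were called lower. Col1a2, a chain of type I collagen, had 10791, 3094, 14430 and 10377 CPM in CD200+ cells and 47.5, 991, 1009, 843 and 547 CPM in CD105+ cells (log2 -3.81, SE 0.84, adjusted p = 0.0100). Col1a1, its partner chain, had 2746, 1908, 5531 and 2829 CPM against 9.77, 374, 148, 172 and 102 (log2 -4.34, SE 1.06). Library 10 was the lowest CD105+ library for both chains. Col3a1, a chain of fibrillar collagen in soft tissue, was similar in level, at 797, 607, 728 and 2981 CPM against 104, 1940, 1010, 1572 and 1192 (log2 -0.14, SE 0.75, adjusted p = 0.932). CD105+ libraries other than number 10 therefore held fibrillar collagen RNA in the range of CD200+ libraries for Col3a1. Collagen-processing genes fell in 8 of 24 (median -2.59), with Adamts2, a procollagen N-proteinase, at log2 -3.49 (SE 0.59) and Serpinh1, the collagen chaperone HSP47, at -3.02 (SE 0.65). Small proteoglycans fell in 6 of 13 (median -3.00), among them Ogn, osteoglycin, with 426, 199, 298 and 206 CPM against 37.3, 29.4, 69.8, 21.6 and 10.4 (log2 -3.07, SE 0.52).

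Matricellular genes fell in 7 of 27 (median -2.04). Besides Spp1, Tnc (tenascin C) had 4197, 1059, 1719 and 375 CPM against 0, 12.3, 0.286, 4.38 and 16.7 (log2 -8.07, SE 1.54), and Ccn1, an integrin-binding secreted protein, fell by 6.59 (SE 1.19). Matrix proteases and inhibitors fell in 8 of 21 (median -2.48). Mmp13, the collagenase of bone and cartilage, had 3991, 2031, 3062 and 4408 CPM against 0, 0, 0, 0.341 and 0.515 (log2 -14.01, SE 1.43, adjusted p = 9.03e-05). Timp3, an inhibitor of such enzymes, fell by 5.83 (SE 1.52). Of 18 cartilage genes 1 passed, lower (median -2.74), a share under the 7.63% of all genes. The chondrocyte marker level ranged widely in both groups, at 92.7 to 16633.1 CPM in CD200+ cells and 0 to 5335.9 CPM in CD105+ cells. Without library 12, which held that highest CD105+ level, 5 cartilage genes were called lower, and without library 2, 3, 4, 10, 11, 13 or 14 none was. Collagen calls were then 6 and ran from 3 upward without other single libraries, and collagen-processing calls were 5 without library 3. Protease calls were 4 without library 4 and 5 without library 10 or 14. Spike-in scaling left no called collagen, collagen-processing, proteoglycan or cartilage gene, with medians of -1.4, -1.28, -2.16 and -2.94. At an unadjusted p under 0.05 in edgeR with the usual scaling, 13, 15, 8 and 4 of them differed, and DESeq2 called 12, 13, 6 and 3 lower. Spike-in scaling left 2 matricellular genes (median -0.69) and 1 protease gene (median -1.06).

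Genes in the lists of BMP and TGF-beta, Wnt, Notch and growth factor signalling were lower in CD105+ cells. In the BMP and TGF-beta list 19 of 30 genes fell and none rose (median -4.48). Bmp4, a bone-inducing ligand, had 225, 314, 222 and 180 CPM against 1.55, 0, 0, 0 and 0.221 (log2 -9.83, SE 1.31, adjusted p = 0.000542). Among receptors, Bmpr2 had 175, 58.0, 220 and 282 CPM against 2.00, 18.4, 6.49, 13.5 and 8.46 (log2 -4.23, SE 0.61), and Tgfbr3, betaglycan, fell by 4.89 (SE 0.67). Id3, a target gene of BMP signalling, had 2105, 3325, 1226 and 3356 CPM against 69.5, 97.8, 273, 82.4 and 31.5 (log2 -4.50, SE 0.54, adjusted p = 0.000271). These 4 genes were named as those with the smallest p in the list, so their shared direction adds no support. Of the 30 log2 values in the list, 28 were below 0 and 2 above. The calls were 15 to 19 without single libraries and 2 under spike-in scaling.

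In the Wnt list 7 of 23 genes fell and none rose (median -4.33). The secreted antagonist Wif1 had 856, 439, 189 and 233 CPM in CD200+ cells and 0 in all CD105+ libraries, at least 9093-fold lower (adjusted p = 0.00220). Dkk1, an antagonist that binds Lrp co-receptors, had 216, 552, 14.8 and 36.2 CPM against 0, at least 2842-fold lower (adjusted p = 0.0202). Sfrp4, a Frizzled-like decoy, had 787, 1596, 714 and 432 CPM against 10.2, 55.9, 105, 20.2 and 21.8 (log2 -4.37, SE 0.64), and the receptor Fzd4 fell by 4.33 (SE 0.97). Without library 1, 10, 13 or 14 the list held 4 calls. In the Notch list 7 of 11 genes fell and none rose. The median was -6.27, or -5.48 with genes of 0 counts set at their bound. Heyl, a Notch target, had 75.0, 382, 112 and 279 CPM against 0, at least 3739-fold lower (adjusted p = 0.000214). The receptor Notch3 had 81.5, 96.0, 135 and 266 CPM against 0, 0.597, 0, 4.83 and 0 (log2 -6.98, SE 1.38), and the target Hes1 fell by 6.27 (SE 1.25). Heyl and Notch3 are also in the satellite cell list given under other observations. Of 24 genes for IGF, FGF, PDGF and related receptors and ligands 9 fell and none rose (median -2.87). Fgfr1 had 389, 449, 300 and 486 CPM against 3.33, 19, 15.3, 4.15 and 11.5 (log2 -5.25, SE 0.51, adjusted p = 6.80e-05), and Igfbp5, an IGF-binding protein, fell by 2.97. Spike-in scaling left 2 Wnt genes, 1 Notch gene and 1 growth factor gene.

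Stromal progenitor genes fell in 7 of 22, with none higher (median -3.07). The counts of this paragraph stand beside 7.63% of all genes tested called lower. Vcam1, an adhesion molecule listed here for stromal cells and below for satellite cells, had 967, 783, 532 and 1104 CPM against 7.10, 35.8, 28.0, 16.3 and 17.2 (log2 -5.34, SE 0.44, adjusted p = 4.88e-05). Kitl, stem cell factor, had 526, 21.9, 246 and 60.5 CPM against 0, 0, 0, 1.48 and 0 (log2 -9.28, SE 1.55), and Lepr, the leptin receptor of marrow stroma, fell by 7.70 (SE 1.59). Calls were 4 without library 1, 3, 10 or 14 and 10 without library 2. Vcam1 was at 830 ± 198 CPM in arthritic CD200+ cells (SD, n = 5), with a mean within the range of the non-immunized cells. In the fat lineage list 2 of 13 fell (median -3.34). Adipoq had 1788, 60.8, 1618 and 374 CPM against 0, and Cebpd, a factor of early adipogenesis, fell by 5.04 (SE 0.98). Without library 11, 6 of the 13 fell. Of 14 Hox and limb genes 3 fell, among them Hoxa10 (log2 -3.79, SE 0.85) and Hoxa7 (at least 356-fold lower), with a median of -3.43. Adhesion genes fell in 6 of 22 (median -2.84), including Ncam1 (log2 -5.58, SE 0.47) and the cadherins Cdh2 (-9.22, SE 1.55) and Cdh11 (-6.23, SE 1.34). Caveola and cytoskeleton genes fell in 13 of 24 (median -2.65). Cavin2, a coat protein of caveolae, had 126.2, 580, 184 and 371 CPM against 0, at least 5501-fold lower (adjusted p = 5.15e-05). Under spike-in scaling 1 stromal progenitor gene (median -1.34), 1 fat lineage gene (-1.35), 2 adhesion genes (-1.13) and 1 caveola or cytoskeleton gene (-0.99) were called, all lower, and no Hox gene (-1.61). With the usual scaling 7 Hox genes had an unadjusted p under 0.05 in edgeR. DESeq2 called 12 stromal, 8 Hox and 22 caveola or cytoskeleton genes lower.

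Muscle satellite cell genes were among the strongest decreases, though the sort did not aim at muscle. Of 9 skeletal muscle markers 4 fell and none rose. The median was -6.47, or -5.95 with genes of 0 counts at their bound. Pax7, the factor that defines satellite cells, had 102, 176, 231 and 502 CPM in non-immunized CD200+ libraries and 0 in all CD105+ libraries, at least 5659-fold lower (adjusted p = 5.42e-05). Myf5, a myogenic factor, had 83.0, 166, 63.6 and 112 CPM against 0, at least 1980-fold lower (adjusted p = 4.33e-05). Myod1, another myogenic factor, had 5.73, 167, 30.4 and 102 CPM against 0, 0, 0, 0 and 0.147 (log2 -10.82, SE 1.27). All CD200+ libraries thus held these RNAs. Arthritic CD200+ cells had Pax7 at 294 ± 115 CPM and Myf5 at 105 ± 25.7 CPM (SD, n = 5), with means within the non-immunized range. Whether satellite cells passed the CD200+ gate was not tested.

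The lists of synovial fibroblast genes held 1 and 2 calls, near the shares of all genes tested (5.57% higher, 7.63% lower). No result about these genes is drawn from the counts. Of 11 lining genes, with a median of 0.39 (1.99 under spike-in scaling), 1 passed, higher, and it was Tspo2, a gene of erythroid cells (log2 7.18, adjusted p = 0.0352). Its call was lost without any 1 of libraries 2, 3, 4, 10, 12, 13 and 14. Prg4, lubricin, had 2148, 5494, 86.5, 29.7 and 2175 CPM in CD105+ libraries and 43.5, 24.0, 0.819 and 90.4 CPM in CD200+ libraries (log2 5.64, SE 2.33, adjusted p = 0.123). It was above 2000 CPM in libraries 10, 11 and 14, and in libraries 12 and 13 it lay within the CD200+ range. Of 17 sublining genes 14 had a log2 value under 0 (median -1.65) and 2 fell, against 7.63% of all genes. They were Cxcl14, a chemokine (log2 -5.86, SE 1.04), and Gsn, gelsolin (-1.97). Under spike-in scaling 1 sublining gene was called lower, with a list median of -0.12. The fibroblast marker level was 3520.8, 8854.7, 2561.5, 2291.9 and 3844.0 CPM in CD105+ libraries 10 to 14. In CD200+ cells it was 3953.2 to 7427.8 CPM. Every CD105+ library except number 11 thus lay below the CD200+ range. The marker list holds Prg4, which had 5494 CPM in library 11, so this sum is not a measure of 1 cell type.

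Cytokine genes fell in 10 of 22, with none higher (median -3.41). For these and the complement genes below, 7.63% of all genes tested were called lower. Csf1, the macrophage growth factor, had 346, 39.1, 250 and 100 CPM against 3.55, 13.5, 1.53, 8.24 and 2.87 (log2 -4.94, SE 0.75, adjusted p = 0.00126). Tnfsf11, RANKL, the osteoclast-inducing ligand, had 51.5, 0, 20.5 and 24.7 CPM against 0, on summed counts at least 618-fold lower (adjusted p = 0.0296). Lifr, a receptor of the IL-6 family, fell by 6.56 (SE 1.24). Calls ran from 5 (without library 14) and 6 (without library 1, 4, 10 or 13) to 9 without single libraries. Spike-in scaling left 1 cytokine gene, with a median of -2.35, and 1 complement gene. Complement genes fell in 4 of 13 (median -1.65), among them Clu, clusterin, with 677, 2254, 568 and 266 CPM against 0, 8.54, 27.2, 1.71 and 21.2 (log2 -6.32, SE 1.23). Of 25 interferon response genes 1 passed, Isg15, a ubiquitin-like modifier. It had 5.33, 1.61, 29.3, 7.95 and 0.588 CPM in CD105+ cells against 0, was at least 150-fold higher (adjusted p = 0.0420) and lost its call in 11 of 21 alternatives, among them leaving out any single library (adjusted p 0.0502 to 0.0842). The list's median was -0.26, close to that of all genes. None of 18 MHC class I and 5 MHC class II presentation genes passed edgeR's test, and none had an unadjusted p under 0.05. DESeq2 called none of them and limma voom 1 class I gene. Their medians were -0.04 and -0.77. The class II level rested on single libraries. It was 2000.1 CPM in CD105+ library 11, where macrophage markers were high, and 49.3 CPM or less in the other CD105+ libraries. In CD200+ library 4 it was 1664.4 CPM. Without library 11 the class II median was -3.78, with 1 gene called lower, and without library 4 it was 0.31, with no call.

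Immediate early genes, which respond within minutes to stimulation or tissue handling, fell in 15 of 23, with none higher (median -4.63). Jun had 301, 3946, 530 and 1051 CPM in CD200+ libraries and 31.1, 41.2, 85.7, 18.9 and 11.5 CPM in CD105+ libraries (log2 -5.27, SE 0.77, adjusted p = 0.000977). Fosb had 655, 699, 420 and 1882 CPM against 0.444, 31.9, 15.3, 10.8 and 11.1 (log2 -6.03, SE 0.93), and Ier2 fell by 5.37 (SE 0.82). The summed level was 408.1 to 3688.5 CPM in CD105+ cells and 6955.8 to 89678.9 CPM in non-immunized CD200+ cells, with the highest value in library 2. Without that library 13 of the 23 fell. Stress chaperones fell in 7 of 21 (median -1.12, and 0.28 under spike-in scaling). Cryab had 117, 70.5, 180 and 175 CPM against 5.77, 11.6, 4.10, 8.75 and 7.50 (log2 -4.16, SE 0.40, adjusted p = 6.80e-05). Hspb1, another small heat shock protein, fell by 6.47 (SE 1.00). Spike-in scaling left 1 immediate early and 2 chaperone genes.

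Glycolysis genes had a median of 0.05 and 2 of 18 passed, both lower, a share near the 7.63% of all genes. Without library 1, 3, 10 or 14 none was called, and without library 2, 4 or 13 only 1; in the full fit 7 had an unadjusted p under 0.05, and DESeq2 called 1 higher and 6 lower. In the list on autophagy and enucleation 3 of 22 rose and 3 fell (median 0.22). The 3 that rose were Tspan33, a tetraspanin of erythroblasts, Ubac1 and Ube2l6, genes of ubiquitin conjugation. Tspan33 had 61.9, 257, 588, 302 and 273 CPM against 0, at least 5844-fold higher (adjusted p = 6.80e-05), and Ubac1 had 590, 387, 534, 457 and 386 CPM against 37.0, 38.1, 39.5 and 47.8 (log2 3.54, SE 0.48).

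Markers of the other cells that a sorted synovial sample could hold varied by library. The macrophage level was 4.22 to 19.9 CPM in CD105+ libraries other than number 11, against 24.7 to 307.6 CPM in CD200+ cells. Neutrophil markers reached 1238.6 CPM in CD105+ cells and 6978.7 CPM in CD200+ cells, the latter in library 3. Endothelial markers were at 58.7 to 73.4 CPM and 83.1 to 161.7 CPM, mural cell markers at 3.77 to 301.4 CPM and 520.2 to 1197.0 CPM, and tenocyte markers at 39.1 to 694.2 CPM and 1144.9 to 14420.8 CPM. The tenocyte list holds the immediate early gene Egr1, and its highest level was in library 2, as was that of the immediate early list. The mural list holds Notch3, also a Notch gene, and Des, also a skeletal muscle marker. Des alone had 614 CPM of the mural sum of 926.9 CPM in library 2. Neither sum is thus a measure of 1 cell type. Osteoclast markers were at 365.2 to 554.4 CPM in CD105+ cells, within the CD200+ range of 153.7 to 651.4 CPM. Schwann cell markers were at 50.8 to 196.3 CPM and 239.1 to 755.4 CPM. Megakaryocyte markers were at 45.1 to 133.4 CPM and 17.7 to 169.8 CPM, and early erythroid progenitor markers at 36.0 to 127.0 CPM and 20.1 to 481.5 CPM. T and NK cell markers reached 7.40 CPM and 56.8 CPM, and mast cell markers 1.34 CPM and 0. The highest erythroid level, 32389.2 CPM, was in CD105+ library 10, which had the lowest Col1a2 and Col3a1 levels of its group.

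**Figure D4:**
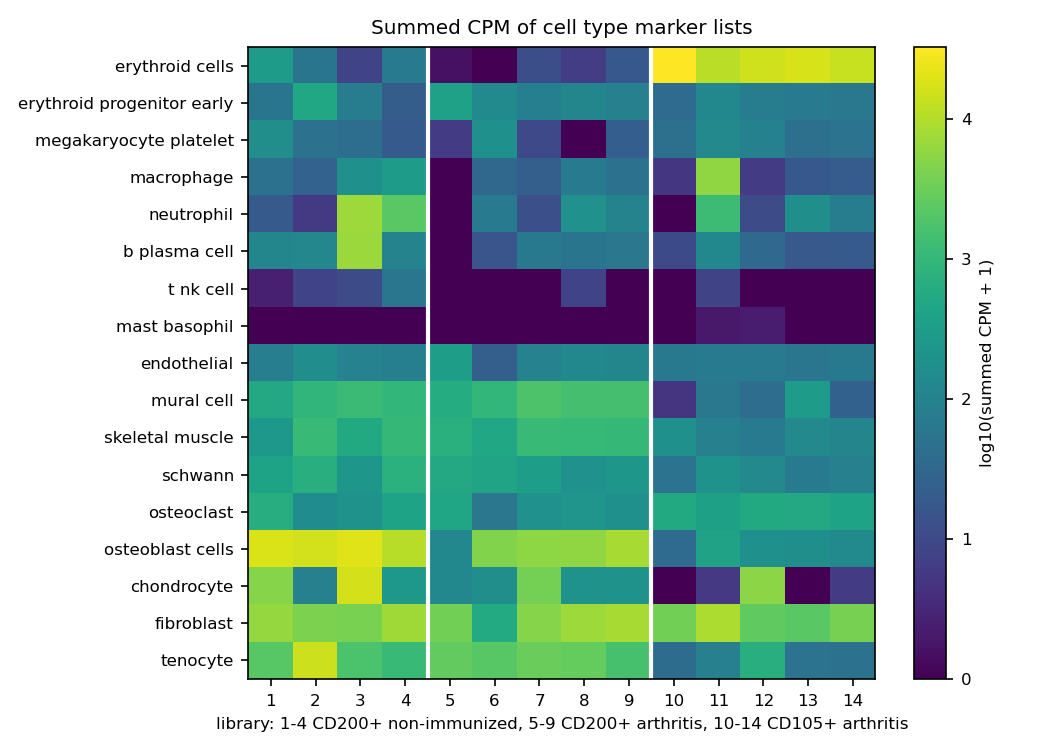
Rows are lists of cell type markers and columns the 14 libraries, coloured by the log10 of the summed CPM plus 1. Erythroid markers were at 11233.7 CPM or more in libraries 10 to 14 and osteoblast markers at 10687.8 CPM or more in libraries 1 to 4, and single libraries stand out for macrophage (11) and chondrocyte (1, 3, 7 and 12) markers.

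Arthritic CD105+ cells differed from arthritic CD200+ cells in 1692 genes (11.3% of those tested), 719 higher (4.79%) and 973 lower (6.48%). This comparison shares the CD105+ libraries with the one above, so their values are set side by side only. Haem synthesis had a median log2 change of 3.52 against non-immunized and 4.6 against arthritic CD200+ cells, and replication genes 4.34 and 3.73. Bone matrix genes had -5.96 and -4.15, collagens -2.60 and -1.92, BMP and TGF-beta genes -4.48 and -3.94, and immediate early genes -4.63 and -3.31. Ibsp fell by 15.07 against non-immunized and by 13.98 against arthritic CD200+ cells. Col1a2 had a log2 difference of -3.81 in the first and -2.09 in the second, where it did not pass (adjusted p = 0.0915). Alad rose by 5.28 and by 5.18, and Vcam1 fell by 5.34 and by 5.31. No test of the difference between these values was made.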

How the data were processed

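RNA of 14 sorted libraries was amplified with a Smart-seq v4 kit and sequenced after Nextera XT preparation, per the labels' protocols. The authors deposited whole-number counts per gene; cutadapt, StringTie, HISAT2 and edgeR, with GRCm38 and mm10 as builds, are listed in the submitters' processing notes. Tool versions and the strand setting were not given in the sources used here. Reads of a gene and its antisense partner therefore cannot be told apart. The table holds 47729 genes and 92 spike-in rows, which were left out of library sizes. A second deposited table held the same counts for fewer genes and served only as a gene choice.

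CPM values are counts divided by TMM-adjusted library sizes. Counts were fitted with edgeR 4.0.16 (R 4.3.3; TMM factors, filterByExpr with a minimum count of 10, robust quasi-likelihood test, all 14 libraries in 3 groups), with Benjamini-Hochberg adjustment over all 15015 genes and a threshold of 0.05. The code of the fit was tried on simulated counts, with changes planted only in genes of high mean count. Their spread was set lower than that of these data. The trial therefore does not show how the fit performs on genes with few counts or at the spread seen here. Standard errors were derived from the log2 change and the F statistic. The common biological coefficient of variation was 1.276. No 2 libraries of the same group were duplicates, and pairs from different groups were not checked. Intervals and floors (3 counts, 95% level) cover counting error only. Library measures were compared by exact permutation over 126 splits.

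The comparison, the 57 gene lists (928 genes, 921 in the table) and the rules were chosen with earlier results of these data known. Genes were named by rule: the 12 highest and 12 lowest called protein-coding genes at 10 CPM or more without overlap, up to 4 members per programme list by smallest p, all sort markers, and the leading cell type markers; others in the text were chosen after their values were seen. Gene positions are from GENCODE M21, matched for 47310 gene identifiers (419 unmatched). The 21 alternatives covered scaling, filters, tools (DESeq2 1.42.0, limma 3.58.1), depth and libraries. Results for some single genes are not reported here.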

Additional observations from a re-analysis of the deposited data

Results flagged for a closer look

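The highest or lowest library of a group was compared with the range of its group by Dixon's ratio on log2(CPM + 1), for the genes named in the text with a group mean of 10 CPM or more, and likewise for measures of the libraries such as depth. Of 162 groups of values compared in this way 7 had a library past the critical value of that ratio at the 95% level, and chance alone gives about 1 such case in 20 groups, so this number is no more than chance gives. Among arthritic CD105+ libraries, number 10 was the highest for Car1 (7287.4 CPM) and the lowest for Col1a2 (47.5 CPM) and Col3a1 (103.9 CPM), which stood off from the other 4. Among non-immunized CD200+ libraries, number 1 stood off as the highest for the red cell gene Car1 (43.7 CPM) and for the ferritin gene Fth1 (3013.4 CPM). Library 4 was the highest of that group for Ftl1 (2166.3 CPM) and Col3a1 (2981.3 CPM).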

How the results depend on the processing

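No paired analysis was possible because the library numbers 1 to 14 are not shared between groups. Of the 1982 calls (836 higher, 1146 lower), spike-in scaling left 278 (167 higher, 111 lower), and 276 of these were among the main calls. DESeq2 gave 4060 calls (1368 higher, 2692 lower) and limma voom, which weights samples, 4993 (2194 higher, 2799 lower). Without a filter on low counts 548 genes were higher, and without libraries over 80% spike-ins 1286 were. RLE factors gave 669 higher and 1430 lower, and a fit of only the 9 compared libraries 1113 higher and 957 lower. Leaving out 1 library at a time gave 1308 to 1762 calls, 550 to 766 higher and 753 to 1112 lower. The difference in mean counts on mouse genes (CD105+ minus CD200+) then ran from -4180000 to 553000, and that in genes detected from -1280 to 378. Of 105 genes tested by name, 61 kept direction and call under spike-in scaling, 41 lost their call and 3 turned in direction. Those that turned had not passed: Thy1 became 0.73, Pecam1 0.16 and Col3a1 1.45 (log2). With limma voom Thy1 was 0.39 and Col3a1 0.41, and with DESeq2 Eng was -0.00. Without single libraries, Eng ran from -0.03 to 1.25, Thy1 from -1.11 to 0.72, Ptprc from -0.20 to 9.36 and Col3a1 from -0.40 to 0.75. The causes of these shifts were not tested. Depth on mouse genes was 5365927 counts or more in each of the 9 libraries compared. The lowest of all 14 libraries in the fit, number 6, had 2919666. The common biological coefficient of variation was 1.276.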

Other observations

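The families below were chosen after their values were seen and are descriptions. Of all genes tested 5.57% were higher and 7.63% lower. Of 38 proteasome subunit genes 19 were higher and none lower in arthritic CD105+ cells (median log2 1.26). Psmd14, a deubiquitinase of the proteasome lid, was at 368 ± 77.9 CPM (SD, n = 5) against 66.4 ± 27.2 CPM (SD, n = 4), a log2 change of 2.47 (SE 0.33). Of 22 core spliceosome genes 12 were higher and none lower (median 1.63), with Lsm4 at 664 ± 136 CPM against 158 ± 56.3 CPM. Mitochondrial ribosome genes had 17 of 75 higher and 1 lower (median 1.19), translation initiation genes 12 of 42 higher and 2 lower (median 0.88), and the chaperonin that folds actin and tubulin 2 of 7 higher (median 1.14).

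On the lower side, 6 of 15 imprinted genes were lower and none higher (median -3.22). Peg3 was at 4.08 ± 4.68 CPM in CD105+ cells against 365 ± 246 CPM in non-immunized CD200+ cells (log2 -6.47, SE 1.13), and Zim1 had no count in CD105+ cells. In the nuclear factor I family Nfib had a log2 change of -4.49 (SE 0.46) and Nfic of -1.96 (SE 0.61), while Nfix and Nfia did not pass. A wider list of satellite cell genes held 18 of 22 lower and none higher (median -8.77). Among its members are Pax7, Myf5, Myod1, Cdh15, Fgfr4, Chrnb1, Heyl, Notch3, Vcam1 and Ncam1, which are named above under other lists or rankings. The counts of those lists and of this one are therefore not separate results.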
